A study of Mus musculus with 4 samples.

Results

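The genes described here are those of the interferon response and of nucleic acid sensing, a list of 52 mouse genes chosen by symbol. Of these, 51 were found among the 17906 genes that have a mean level in the deposited table, and Trex1, a nuclease that degrades cytosolic DNA, is not analysed here. RNA was sequenced from MLE12 cells, a mouse lung epithelial line that keeps traits of type II alveolar cells. The series holds 4 libraries, 2 from control MLE12 cells and 2 from lamin B1 KD MLE12 cells, in which a stably expressed shRNA lowers Lmnb1, the gene of a protein of the nuclear lamina. Both kinds of cells were cultured with puromycin at 2 µg/ml, so selection was shared by the groups. The sources used here do not say which shRNA the libraries carry or whether the replicates are separate cultures.

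The values used are mean normalized counts over all 4 libraries, 2 of each group. No difference between lamin B1 KD and control cells is therefore given, and every level below is a mean over both. Levels of different genes were compared per kb of exon, and each gene was placed by its percentile among 17683 genes with an annotated length. The median over those genes was 71.9 per kb, with quartiles of 7.28 and 295 per kb.

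Cells recognise misplaced DNA and RNA with dedicated receptors. cGAS, encoded by Mb21d1, binds DNA in the cytosol and makes a cyclic dinucleotide that activates STING, encoded by Tmem173. The RIG-I-like receptors bind viral RNA and signal through Mavs on mitochondria. Both routes reach the kinase Tbk1 and the factor Irf3, which drive interferon genes. Secreted interferon then acts through receptors, JAK kinases and STAT and IRF factors on elements in the promoters of antiviral genes, in epithelium as in other tissues.

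That element, the interferon-stimulated response element (ISRE), has a core of GAAA, any 2 bases and GAAA again. It was searched on both strands from 250 bases before to 50 bases after the RefSeq start site, on GRCm38. The search covered the 41 of 51 genes with a promoter in the table used. Without an entry were Tmem173, Zbp1, Dhx58, Mx1, Mx2, Usp18, Ifi27, Parp9, Parp14 and Nlrc5. The windows below are examples that lie before the start site in genes with a wide range of levels. Each is read 5′ to 3′ on the strand that carries the motif, a core is in capitals, and the strand is given in words. Further cores that overlap the one in capitals are not marked in the windows of Isg15, Bst2 and Gbp3.
Isg15, chr4:156200866-156200905, minus strand: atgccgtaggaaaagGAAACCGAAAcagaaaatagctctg
Ifit1, chr19:34640770-34640809, minus strand: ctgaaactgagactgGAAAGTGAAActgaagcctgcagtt
Ifit3, chr19:34583392-34583431, minus strand: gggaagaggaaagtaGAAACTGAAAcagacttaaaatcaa
Rsad2, chr12:26456548-26456587, plus strand: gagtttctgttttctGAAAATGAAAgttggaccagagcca
Bst2, chr8:71537578-71537617, minus strand: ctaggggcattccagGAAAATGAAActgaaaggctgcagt
Gbp3, chr3:142559984-142560023, minus strand: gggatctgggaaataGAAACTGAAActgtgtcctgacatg
Stat2, chr10:128270261-128270300, minus strand: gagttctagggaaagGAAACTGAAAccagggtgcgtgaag

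The ISRE core was found in a promoter of 16 of the 41 genes (39%), against 3.99% of the 27025 genes of the table and 3.66% of the 11752 of them with a mean level. A gene with several promoters counts once if any of them holds the motif, and of all 32851 promoter windows 3.44% held it. Of the antiviral effectors 8 of 13 held it, of the RNA sensing genes 3 of 5 and of the transcription factors 2 of 8. No receptor or kinase among 7 held it, and none of the 3 DNA sensing genes with a promoter entry (Mb21d1, Tbk1 and Samhd1). With 1 mismatch allowed Tbk1 held it, and still no receptor or kinase did. The Isg15 promoter held 3 overlapping cores, the first beginning 78 bases before the start site, and those of Ifit1 and Ifit3 held 2 each. In Ifit1 they began 104 and 85 bases before the start, and in Ifit3 156 and 122 bases before it.

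The gamma-activated sequence, TTC, any 3 bases and GAA, was present in a promoter of 12 of the 41 genes (29.3%) and of 9.55% of all genes of the table. Since the list was assembled from known interferon genes, the shares describe the list, and a match is not a measured binding site. Genes whose promoter held the ISRE core had a median level of 75.5 per kb (n = 16), and those without it 293 per kb (n = 25). Among the antiviral effectors alone the order was the other way round. The medians were 158 per kb with the core (n = 8) and 85.6 per kb without (n = 5). Of the 8 with the core 4 stood below the median gene, and the median of 158 falls between Oas1a (35.7) and Isg15 (280 per kb). With 1 mismatch allowed all 13 of these effectors held the core, so this order belongs to the exact core only. Genes with and without the exact core spanned wide ranges. They ran from 4.90 to 2516 per kb with it and from 25.7 to 766 per kb without, so their levels overlapped.

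**Figure D1:**
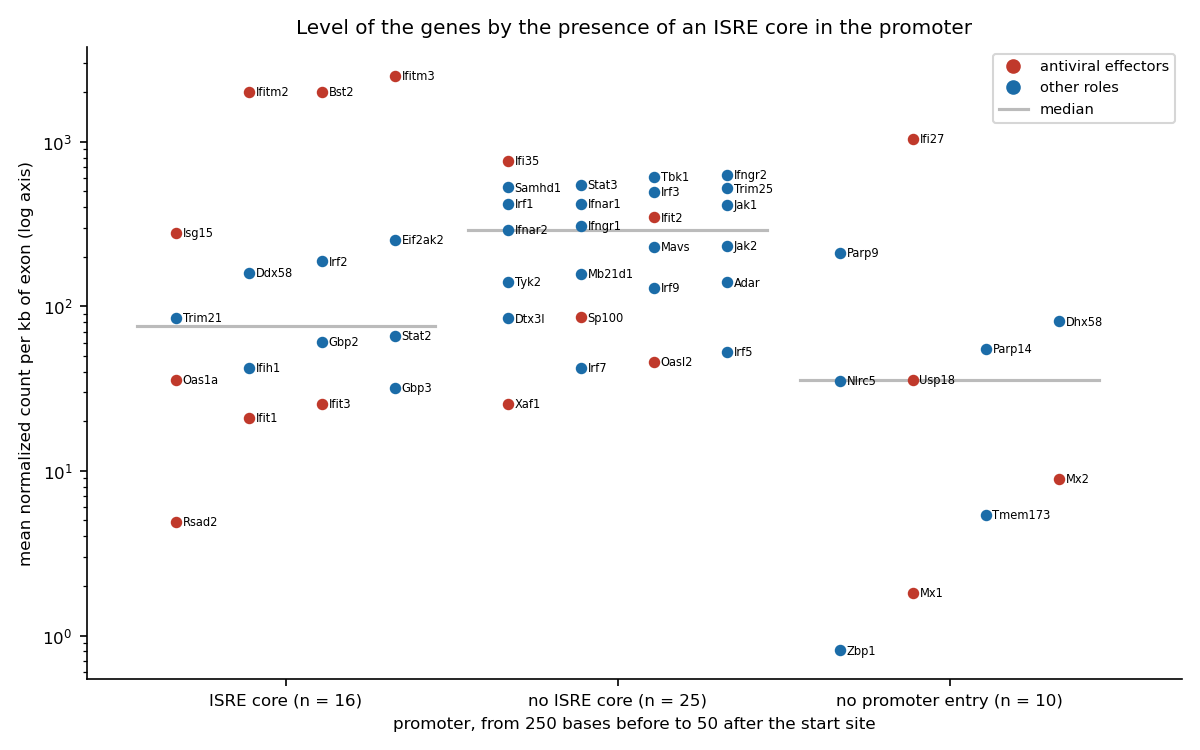
Mean normalized count per kb of exon (log axis) of the 51 genes, grouped by whether a promoter held an ISRE core (n = 16), did not (n = 25) or was not in the table (n = 10), with a line at each group's median and the antiviral effectors in red. Ifitm3 at 2516 and Rsad2 at 4.90 per kb both stand in the group with the core.

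MLE12 cells had transcripts of every role from sensor to effector, but at unequal levels. All 51 genes had a mean level of at least 2, which only 7.2% of all genes did not reach. A mean level of at least 10 was reached by 49, and 4466 of all 17906 genes had one of 10 or less. The median percentile of the list was 60.9, with 32 genes above and 19 below the median of all genes. Of the 51 genes, 21 had a mean level of 1000 or more (41.2%, against 30.5% of all genes). The members were chosen with earlier results of these data known, so these shares and percentiles describe the list only. Without the antiviral effectors, whose levels ran from 1.81 to 2516 per kb, the levels reached 631 per kb, that of the receptor chain Ifngr2. Samhd1 stood above Ifngr2 under both other length definitions, so the order at the top of the list depends on the length used.

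**Figure D2:**
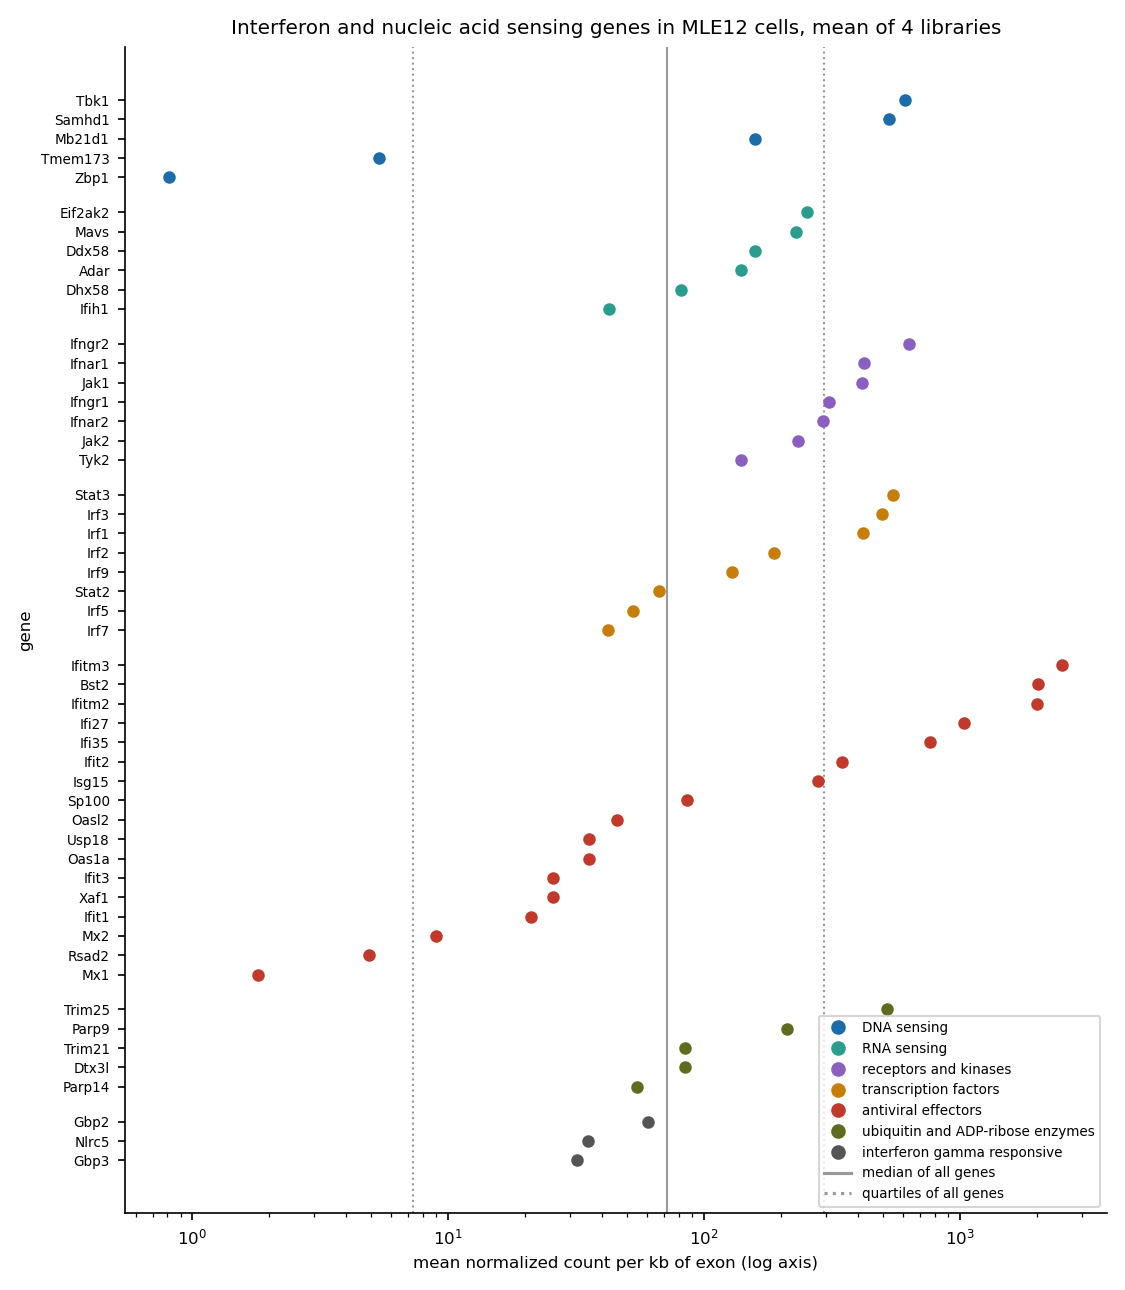
Mean normalized count per kb of exon over the 4 libraries (log axis) for each of the 51 genes, coloured by role, with the median (71.9) and quartiles (7.28 and 295) of all genes as vertical lines. The 7 receptor and kinase genes all lie to the right of the median, whereas the antiviral effectors spread from 1.81 to 2516 per kb.

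Among the DNA sensing genes the kinase and the nucleotide hydrolase were abundant and the adaptor was not. Tbk1, the kinase that phosphorylates Irf3, stood at 613 per kb, the 87.5th percentile. Samhd1, a dNTP hydrolase that restricts retroviruses, stood at 527 per kb, the 85.2nd percentile. Mb21d1 reached 158 per kb, the 63.0th percentile. With the median coding transcript as length it stood at the 42.8th percentile, in a ranking without the genes that lack such a transcript. Among genes with a mean level of 10 or more it stood at the 50.9th. Tmem173, by contrast, had a mean level of 14.8, or 5.39 per kb, at the 21.8th percentile. The level of Mb21d1 was 29.3 times that of Tmem173 per kb of exon, and between 16.6 and 29.3 times under the length definitions tried. Zbp1, which senses Z-form nucleic acid and can trigger cell death, was the lowest of all members at a mean level of 2.87, or 0.812 per kb.

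The RNA sensing genes lay closer together, between 42.4 and 253 per kb, and 5 of the 6 stood above the median gene. With the median coding transcript as length, again ranked without genes that lack one, 3 did. They were Ddx58, Adar and Eif2ak2, and Ddx58 was then the highest. Eif2ak2, which encodes the kinase PKR that blocks translation upon binding double-stranded RNA, had 253 per kb. Mavs, the shared adaptor of the RIG-I-like receptors, followed at 228 per kb. Ddx58 (RIG-I) had 159 per kb, Dhx58 (LGP2), which modulates the other receptors, 81.0 per kb, and Ifih1 (MDA5) 42.4 per kb. Ddx58 thus exceeded Ifih1 3.74-fold, or 3.74 to 4.88-fold over the length definitions. Adar, which edits adenosine to inosine in double-stranded RNA, had 140 per kb. Of the Adar exon bases 16.8% overlap Chrnb2 on the opposite strand, and reads of these genes cannot be assigned without knowledge of the strand setting.

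The receptors and their kinases all stood above the median gene, from the 60.9th to the 87.8th percentile. With the median coding transcript as length, ranked among genes that have one, Tyk2 fell to the 45.1st percentile. It fell to the 48.1st among genes with a mean level of 10 or more. Ifngr2 (631 per kb) and Ifngr1 (308 per kb) encode the chains of the interferon gamma receptor. Ifnar1 (421 per kb) and Ifnar2 (293 per kb) encode those of the type I interferon receptor. The ratio of Ifnar1 to Ifnar2 was 1.44 but rose to 2.00 with the longest transcript as length and was near 1 with the coding transcripts, so the order of these genes was not resolved. The receptor-bound kinases Jak1, Jak2 and Tyk2 stood at 413, 233 and 140 per kb. Of the Ifnar2 exon bases 9.46% overlap Gm21970 on the same strand.

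Of the 8 transcription factors 3 (Stat3, Irf3 and Irf1) stood above the upper quartile of all genes, and 3 (Stat2, Irf5 and Irf7) below the median. Stat3, a factor shared by many cytokines, had 547 per kb. With the median coding transcript as length Irf2, Irf1 and Irf3 ranked above it. Irf3, the factor activated directly by Tbk1, had 495 per kb, and Irf1, which is induced by interferon gamma, 419 per kb. Irf2, a repressor that competes with Irf1, had 188 per kb. Stat2 and Irf9, subunits of the ISRE-binding complex ISGF3, had 66.4 and 129 per kb. Irf5 and Irf7, which amplify interferon production in immune cells, had 53.0 and 42.2 per kb. Irf3 exceeded Irf7 11.7-fold, and 11.7 to 22.6-fold over the length definitions. For Irf5, 14.1% of the exon bases overlap Tnpo3 on the opposite strand.

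The antiviral effectors spread widely, with 6 of 17 above the upper quartile of all genes and 9 below the median. Ifitm3 and Ifitm2, membrane proteins that hinder viral entry, had 2516 and 1996 per kb. Bst2 (tetherin), which holds budding virus at the cell surface, had 2018 per kb. Ifi27 had 1034, Ifi35 766 and Ifit2, a member of the IFIT family, 346 per kb. The value of Ifitm2 is uncertain, since 66% of its transcript matches Gm11951 at 95% identity or more and 40.9% of its exon bases overlap Gm45717 on the same strand.

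Below these stood Isg15, a ubiquitin-like modifier, at 280 per kb and Sp100, a nuclear body protein, at 85.6 per kb. Oasl2 and Oas1a, of the family that makes oligoadenylate upon binding double-stranded RNA, had 45.7 and 35.7 per kb. Usp18, which removes Isg15 from proteins and dampens receptor signalling, also had 35.7 per kb. Xaf1 and Ifit3 had 25.7 per kb each and Ifit1, whose protein binds foreign RNA ends, 21.02 per kb. The GTPases Mx2 and Mx1 had 8.97 and 1.81 per kb. Rsad2 (viperin), which makes a chain-terminating nucleotide, had 4.90 per kb. The IFIT genes of the list lie in the same region of chromosome 19 of GRCm38, with Ifit2 at chr19:34550694-34576419, Ifit3 at chr19:34583531-34588731 and Ifit1 at chr19:34640871-34650009. Their levels differed widely, since Ifit2 exceeded Ifit1 16.5-fold per kb, and 16.5 to 28.6-fold over the length definitions.

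Reads of several effectors could be shared with near-identical genes. At 95% identity or more, 100% of the Oas1a transcript matches Oas1g, 97.4% of Ifit3 matches Ifit3b, and 63.8% of Isg15 matches AC151275.1. For Mx2, 34% of the transcript matches Mx1. The levels of these genes are therefore uncertain.

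The ubiquitin and ADP-ribose enzymes stood between 54.8 and 520 per kb. Trim25, a ubiquitin ligase that acts on RIG-I signalling, was highest at 520 per kb. Trim21, a cytosolic antibody receptor and ubiquitin ligase, had 84.6 per kb. Parp9 and its partner Dtx3l had 210 and 84.3 per kb, and Parp14, an ADP-ribosyltransferase, 54.8 per kb. Parp9 and Dtx3l lie head to head on chromosome 16 and share 458 exon bases on opposite strands, 9.4% of those of Parp9.

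The 3 genes grouped here as interferon gamma responsive all stood below the median gene. Irf1, also induced by interferon gamma but grouped with the transcription factors, stood above it at 419 per kb. Gbp2 and Gbp3, guanylate-binding GTPases that attack intracellular pathogens, had 60.5 and 32.0 per kb. Their ratio of 1.89 fell to 0.95 with the median length of the coding transcripts, so their order was not resolved. Nlrc5, the transactivator of MHC class I genes, had 35.3 per kb.

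The mean levels could be resolved further into the libraries. They are written to 12 digits and are sums of whole counts divided by size factors, so for each rarer gene only 1 set of 4 read counts gave the deposited mean. This held for 17 of the members, with mean levels between 2.87 and 291. The libraries are named A to D by falling size factor (1.0744, 1.0546, 0.9527 and 0.9339). They are not assigned to control or lamin B1 KD cells, so no group is compared and values are given per library. Intervals cover counting error only.

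The rarest members rested on few reads. Zbp1 had 1, 0, 8 and 2 reads in libraries A, B, C and D. Of its 11 reads 8 fell in library C (exact 95% Poisson interval 3.5 to 15.8), and the same interval for the 0 reads in B reaches up to 3.7. The variance of Zbp1 was 5.14 times that of counting alone, the 97.2nd percentile among 1682 genes of like mean. Mx1 had 4, 6, 9 and 8 reads, or normalized counts from 3.7 to 9.4. Tmem173 had 15, 14, 14 and 16 reads, with normalized counts between 13.3 and 17.1. STING transcripts were thus rare in every library, not only in the mean. Rsad2 had 25, 24, 28 and 9 reads, that is normalized counts of 23.3, 22.8, 29.4 and 9.6. Library D was the low one for this gene, and the 3.05-fold range was the widest among the members with reads in every library.

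Mx2 differed from Mx1 in abundance but also varied, with normalized counts of 20.5, 27.5, 34.6 and 47.1 in A to D. Ifit3 had 37.2, 36.0, 58.8 and 47.1, and Ifit1 66.1, 59.7, 49.3 and 48.2. Libraries C and D were the higher ones for Ifit3, and A and B for Ifit1, a gene of the same family and region of chromosome 19. The variances were only 2.50 (Ifit3) and 1.32 (Ifit1) times that of counting alone. They stood at the 48.3rd and 23.8th percentile among genes of like mean, and opposite variation of these genes was not tested. Oas1a had 62.4, 57.8, 60.9 and 87.8, with library D above the others. Usp18 hardly varied, at 98.7, 105.3, 88.2 and 106.0. Xaf1 had 91.2, 107.1, 152.2 and 130.6. For Isg15 the normalized counts were 200.1, 197.2, 195.2 and 253.8, so A, B and C nearly coincided and D was high. Oasl2 had 277.4, 257.0, 314.9 and 315.9.

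Irf7 varied most for its level among the transcription factors that could be resolved, with normalized counts of 113.6, 138.4, 150.1 and 235.6. The range was 2.07-fold with library D highest. Its variance was 17.4 times that of counting alone, the 90.4th percentile among 1076 genes of like mean. Irf5 had 158.2, 136.5, 182.6 and 138.1, a variance of 2.94 times counting. Dhx58 had 259.7, 227.6, 285.5 and 287.0. Gbp2 had 140.5, 165.0, 132.3 and 171.3, and Gbp3 108.9, 84.4, 86.1 and 138.1. Library D was the highest for both guanylate-binding genes, though for Gbp2 by little over library B (171.3 against 165.0).

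For 4 further members several sets of reads gave the mean, but only 1 kept the libraries within 2-fold of each other. Under that assumption, chosen after the data were seen, Nlrc5 had normalized counts of 239.2, 251.3, 335.9 and 373.7. Stat2 had 388.1, 286.4, 479.7 and 420.8, Trim21 281.1, 295.8, 342.2 and 337.3, and Ifih1 322.0, 331.9, 373.7 and 358.7. Nlrc5 and Stat2 varied more than the others, with variances of 14.3 and 17.0 times counting, whereas Ifih1 was at 1.65 times. Members with mean levels above 420 were not resolved.

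Over the 17 members the highest library exceeded the lowest by a median of 1.44-fold in the 16 with reads in every library, from 1.20-fold for Usp18 to 3.05-fold for Rsad2. The median variance was 2.94 times that of counting alone. For all resolved genes with mean levels from 20 to 320 it was 3.16 times, a range below which Zbp1, Mx1 and Tmem173 lie. Over all resolved genes it was 1.81 times. These variances span the libraries of both groups, so any difference between the groups is part of them.

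**Figure D3:**
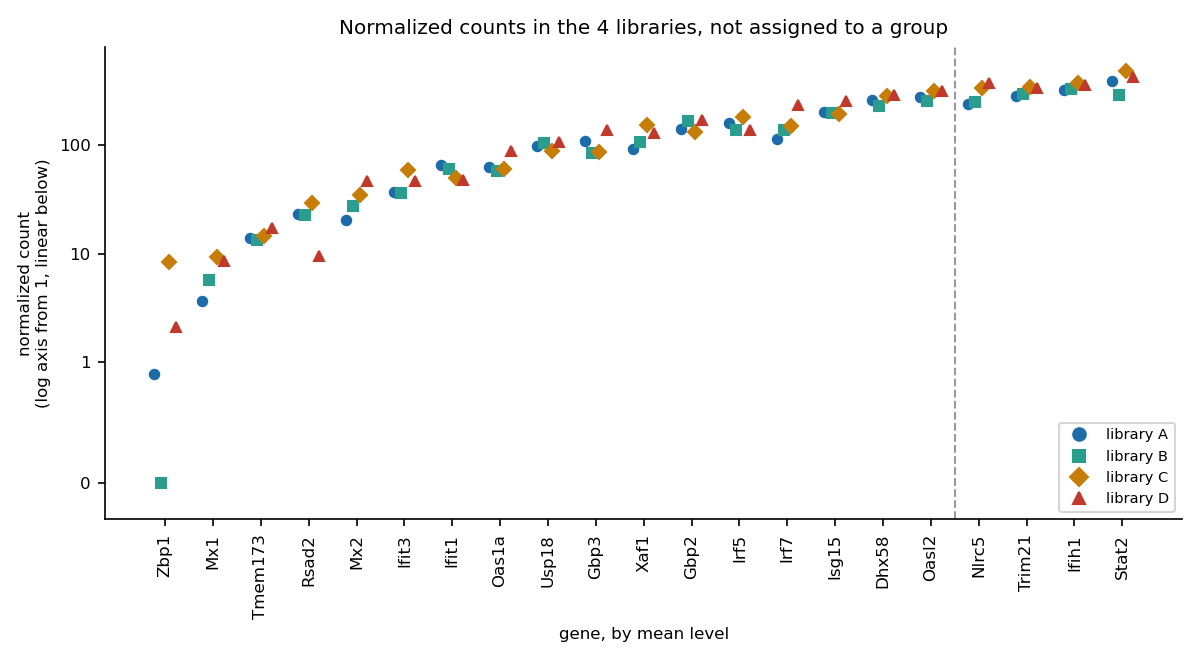
Normalized counts of 21 members in libraries A to D, ordered by mean level (log axis from 1, linear below), with the 4 members that rest on the 2-fold assumption right of the dashed line. Rsad2, Mx1, Mx2 and Irf7 spread 2.07-fold or more, Zbp1 ranges from 0 to 8.4, and the other members with a single solution stay within 2-fold.

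Of 57 further genes of the pathway 45 had a mean level, and the ligands were not among them. None of the 10 interferon genes looked up, Ifnb1 and Ifng among them, has a row, and the rarest gene with a mean had 5 reads over the 4 libraries. The lambda interferon receptor was represented by Il10rb (148 per kb) and Ifnlr1 (72.8 per kb). Further sensors included Zc3hav1, which binds viral RNA, at 914 per kb and the DNA sensor Aim2 at 349 per kb.

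Among other adaptors Myd88, which serves Toll-like receptors, had 397 and Tank, a binding partner of Tbk1, 228 per kb. Rnaseh2a and Rnaseh2c, subunits of the nuclease that removes RNA from DNA hybrids, had 1340 and 375 per kb. The feedback inhibitors Socs3 and Ptpn2 had 977 and 493 per kb. The lowest of the 4 feedback genes, singled out after its value was seen, was Socs1 at 2.26 per kb. Of 19 other interferon-stimulated genes all had a mean level, led by B2m, the light chain of MHC class I, at 19556 per kb and Lgals3bp at 1171 per kb. Most were far lower than these. Their mean levels, not divided by length, ran from 7.10 to 16818.5 with a median of 141, below the median of 277 over all genes.

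The cell type of the label was checked against markers. Of 8 alveolar type II markers 5 had a mean level, with Sftpb at 6189, Nkx2-1 at 2667, Abca3 at 2546 and Sftpc at 893, but Sftpa1 at 1.57. Sftpd, Lamp3 and Slc34a2 have no row. Of the 5 epithelial markers Krt8 and Cdh1 had 9525 and 1463, whereas Epcam was at 77.4, Krt18 at 12.9 and Cldn7 at 2.52. Of 7 immune markers 4 had a mean level, from 7.95 to 51.4, and Ptprc, the pan-leukocyte marker, has no row. Of the 4 genes listed as fibroblast markers Dcn had 12256, Col1a1 131, Pdgfra 36.4 and Col1a2 4.34. Of the 3 endothelial markers Kdr had 14.7 and Pecam1 6.71, and Cdh5 has no row. The part of other cells in the levels was not tested.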

How the data were processed

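RNA-seq of 2 control and 2 lamin B1 KD MLE12 libraries was used. Polyadenylated RNA from 1 µg of total RNA was sequenced on Ion Torrent. The study's methods and the submitters' processing notes name trimming with Reaper, alignment with STAR to mm10 (GRCm38), and analysis with DESeq2 by the authors. The sources used here give no tool versions, counting program or strand setting.

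The only value used is the deposited mean level per gene, a signal made by the authors as the mean over 4 libraries of counts divided by size factors. The table also holds the authors' own comparison (log2 fold change, p-value and corrected p-value), which was not used, so no contrast of lamin B1 KD with control was made. The count test foreseen for counts per named sample was not run, because the table holds none. Of 18018 rows, 112 have no mean level.

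Levels were divided by kb of exon bases in GENCODE M21, matched by identifier for 98.8% of genes, and ranked among those genes. Counts per library were solved from the 12 digits of the mean, and a solution was kept where it was the single one, or, for 4 members with several, where it was the only one under 2-fold. Up to a mean of 320, 8950 of 9251 genes had a single solution, and none had no solution. The solver was tested on simulated data. The reads in these genes were 418071, 406803, 378781 and 366176 in libraries A to D, which is part of each library and not its depth. The precision of each count was given by exact Poisson intervals. Variance is given in units of the counting variance.

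Promoters were those of RefSeq on GRCm38, matched by symbol or synonym. BLAST 2.17.0 was used to find copies, with minimums of 95% identity and 100 bases. Python 3.11.15, numpy 2.4.6, pandas 2.3.3 and scipy 1.17.1 were used, and figures were drawn with matplotlib 3.10.9. The members and gene lists were chosen with earlier results of these data known. The genes to be named were every member of a role of up to 8 genes, of the effectors the 6 highest per kb and those with a mean under 20, and of other pathway genes the 2 highest per kb of each class, except that the class of other factors is not reported here. The other effectors were named after their values were seen. Alternatives were other length definitions, other filters on the mean, leaving out each library, counts scaled to the resolved reads and 1 mismatch in the motif.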

Additional observations from a re-analysis of the deposited data

How the results depend on the processing

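The median percentile of the members was 60.9, and 61.3 with the longest transcript as length. It moved to 51.1 with the median coding transcript, to 57.9 among genes whose mean level was 2 or more, and to 48.1 among those at 10 or more. The coding transcript setting also leaves genes without such a transcript out of the ranking, so it changes the reference genes as well as the length. With it 26 of 51 members shifted by more than 10 percentile points, Irf2 furthest, and 7 crossed the median of that ranking. Among genes at 10 or more 29 members shifted by more than 10 points and 7 crossed the median there. Allowing 1 mismatch in the ISRE core raised the members holding it from 16 to 27 of 41 (65.9%), against 38.9% of all genes of the table. Leaving out each library in turn gave a median range between libraries of 1.29 to 1.44-fold. Counts scaled to the resolved reads left it at 1.44-fold. So did adding the 4 members solved under the 2-fold assumption, which by that choice could not have a wider range. No paired analysis was possible because no values per named sample were used. For the same reason the alternatives foreseen for the comparison of lamin B1 KD with control (replicate block, other size factors, another filter, leaving out a replicate) were not run. Few reads limit Zbp1 and Mx1.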

Other observations

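The 17 resolved members were not spread evenly over the unassigned libraries. Their highest normalized count fell in library D for 10 genes, in C for 6, in A for 1 and in B for 0, and their lowest in B for 8, in A for 4, in C for 3 and in D for 2. Over all 7657 resolved genes with a mean level of at least 2, the highest fell in D for 28.3%, in C for 26.8%, in A for 23.4% and in B for 21.5%. The lowest fell in A for 27.9%, in B for 26.9%, in D for 24.1% and in C for 21.1%. These values carry no test, because the libraries have no group and genes are not replicates. The sets also differ in level, since 4254 of the 7657 genes but only 3 of the 17 members had a mean level of 2 to 20. No comparison at like level was made.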
